A study of Homo sapiens with 10 samples.

Results

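Kinesin motor genes were followed in SH-SY5Y cells, a human neuroblastoma line of sympathetic, noradrenergic character, after 2 treatments. They were chosen by name, as every gene called KIF or KIFC followed by a number and at most 1 letter, with the row of highest mean kept where a name stood on several rows. This gave 42 kinesins among 23416 genes of the siRNA table and 23426 of the miRNA table. By their best-known roles, 14 were classed as mitotic, 16 as transport kinesins of neurons and other cells, and 12 as other. The cells had received 100 nM of an siRNA against LncND, a long non-coding RNA in 3 libraries, a scrambled siRNA in 3, a 50 nM mimic of miR-143-3p in 2 or a scrambled miRNA in 2, and were harvested at 72 h. All 4 groups were transfected cells of the same line, and an untransfected group was not analysed here. The question was how genes of spindle motors and genes of cargo motors behaved when LncND was targeted and when the microRNA was supplied.

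Kinesins are motors that hydrolyse ATP to walk along microtubules, or in some families to take microtubules apart. Mitotic kinesins build the bipolar spindle, align chromosomes and organise the central spindle and midbody, and many of their genes are transcribed in a wave in the G2 and M phases. Transport kinesins carry vesicles, mitochondria and membrane proteins, in neurons mostly outward along the axon, and are present in cells that no longer divide. A dividing neuroblastoma line holds both kinds.

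One promoter element known from genes of the G2 and M phases is the CHR, the cell cycle genes homology region, which is bound by complexes of the MuvB core with pocket proteins, or with MYBL2 and FOXM1. A CCAAT box, bound by NF-Y, often stands a short way upstream of it. The letters TTTGAA or TTCGAA (CHR) and CCAAT were searched on both strands in RefSeq promoters (GRCh38.p14, 250 bases before to 50 after each start site), which were found for 34 of the 42 kinesins. The mitotic promoters below are shown because KIF11, KIF23, KIF4A, KIF18A and KIF22 hold both elements close together. KIF20A is shown as a mitotic gene without the CHR letters, and KIF3B as the transport gene with the largest fall under the mimic. Each is the 100 bases upstream of a start site, with the CHR and CCAAT letters of either strand in capitals.
KIF11 (chr10:92593030-92593129, plus strand): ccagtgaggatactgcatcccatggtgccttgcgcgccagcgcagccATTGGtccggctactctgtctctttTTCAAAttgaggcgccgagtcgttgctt
KIF23 (chr15:69414249-69414348, plus strand): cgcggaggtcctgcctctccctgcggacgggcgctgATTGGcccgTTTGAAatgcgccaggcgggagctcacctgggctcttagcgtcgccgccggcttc
KIF4A (chrX:70290004-70290103, plus strand): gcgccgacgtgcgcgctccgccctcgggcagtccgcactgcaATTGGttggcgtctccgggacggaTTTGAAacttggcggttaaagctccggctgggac
KIF18A (chr11:28108157-28108256, minus strand): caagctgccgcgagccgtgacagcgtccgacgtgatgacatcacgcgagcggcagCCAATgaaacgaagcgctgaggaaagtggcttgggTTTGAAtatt
KIF22 (chr16:29790651-29790750, plus strand): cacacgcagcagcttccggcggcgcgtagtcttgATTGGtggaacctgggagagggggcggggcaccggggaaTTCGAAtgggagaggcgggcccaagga
KIF20A (chr5:138179012-138179111, plus strand): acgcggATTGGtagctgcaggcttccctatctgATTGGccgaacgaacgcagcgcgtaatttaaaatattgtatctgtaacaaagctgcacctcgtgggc
KIF3B (chr20:32277551-32277650, plus strand): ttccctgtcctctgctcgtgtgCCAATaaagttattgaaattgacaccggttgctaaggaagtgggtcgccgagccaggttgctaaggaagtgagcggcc

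CHR letters stood in 12 of 15 mitotic kinesin promoters (80.0%), against 16.4% of all 35116 RefSeq promoters and 11.4% of the 13609 promoters of genes tested with LncND siRNA. By gene, 11 of the 14 mitotic kinesins had them. They stood in 1 of 17 transport kinesin promoters (5.88%), that of KIF5B at position −140 from the start, and in 1 of 11 promoters of other kinesins, that of KIF24. CCAAT letters stood in 73.3% of mitotic, 29.4% of transport and 36.4% of other kinesin promoters, against 34.6% of all promoters. A promoter with CHR letters and at least 2 CCAAT boxes was found for 26.7% of the mitotic promoters and 1.91% of all. Mitotic kinesins without CHR letters in this window were KIF20A, KIF2C and KIF2B. Other spellings of the CHR were not searched, so these promoters are not shown to lack the element. Promoters of 1 gene overlap where start sites are close, and a match is a description of letters only.

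**Figure D1:**
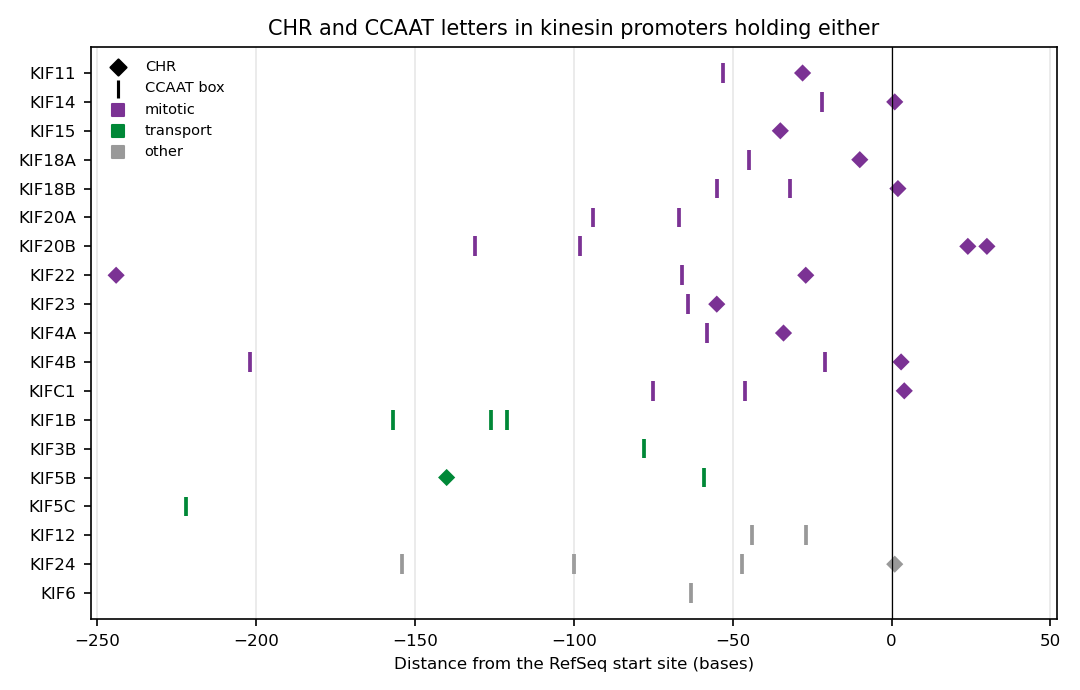
Position of CHR letters (diamonds) and CCAAT letters (bars) in bases from the RefSeq start site, for kinesins whose promoters hold either; rows are genes, colours are classes, and start sites of 1 gene share a row. In the mitotic rows the CHR letters lie mostly within 60 bases of the start with CCAAT upstream of them, and CHR letters are present in 1 transport row, KIF5B.

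A microRNA pairs with messenger RNAs through its seed, bases 2 to 8 from its 5′ end. The mature miR-143-3p (RefSeq, GRCh38.p14, chr5:149428978-149428998, plus strand) is shown with its seed in capitals. Matches in the 3′ UTRs of 4 of the kinesins that had one follow. With the mimic KIF3B and KIF5C fell, KIF3C did not pass the test and KIF26B rose. Capitals in the UTR stretches mark the match: TCATCTC (7mer-m8), CATCTCA (7mer-A1) or TCATCTCA (8mer). UTRs were taken from the GENCODE v29 transcript with the longest 3′ UTR.
miR-143-3p: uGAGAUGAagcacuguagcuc
KIF3B, match at UTR base 210: catcttttaattagCATCTCAgaaatgca
KIF3B, match at UTR base 3609: gatatttatttgtaTCATCTCtttgtcta
KIF5C, match at UTR base 2768: tctgtgcaaacataTCATCTCttcaaatg
KIF3C, match at UTR base 61: cagccaaccctggcTCATCTCAtctgccg
KIF26B, match at UTR base 3286: ggaagctgtctcttTCATCTCttccggat

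The 10 libraries were poly(A) RNA-seq read as FPKM, a fragment count corrected for transcript length and library size. Depth, estimated from the steps between low values, was 25.5 to 44.0 M fragments per library for the siRNA libraries and 13.9 to 37.5 M for the others. The lowest estimate, that of mimic replicate 2, rested on 6 olfactory receptor genes, against 20 for mimic replicate 1, and is uncertain. LncND siRNA replicate 1 held 1 aberrant value, 1224670 FPKM for the Y RNA gene RNY4, and the results below are given without this library where it decides them. LncND has no row under that name in the tables, and its level was not analysed here. Replicates are not said to be separate cultures, so p-values measure the spread between libraries, which may be technical. Of 11 noradrenergic neuroblastoma markers 10 were tested, of which 4 rose and 5 fell with LncND siRNA and 6 rose and 4 fell with the mimic, where 66.9% and 63.3% of all genes changed in either direction. The marker not tested, TH, was low, at 0.039 to 0.179 FPKM in the siRNA libraries and 0.072 to 0.438 in the miRNA libraries. All 10 endothelial and blood markers averaged under 1 FPKM in every group. Of 10 epithelial markers 1 was tested and rose with LncND siRNA, CLDN4 (log2 fold change 0.96), and none was tested with the mimic. The epithelial list summed to 4.28 to 4.66 FPKM with LncND siRNA against 1.49 to 1.65 with scrambled siRNA, and to 1.72 to 1.797 with the mimic against 2.17 to 2.25 with scrambled miRNA. Of mesenchymal markers 5 of 8 tested fell and 1 rose with LncND siRNA, where 30.3% of all genes fell (summed FPKM 523 to 528, against 537 to 553 with scrambled siRNA), and 6 of 7 fell with the mimic, where 38.6% did (496 to 497, against 594 to 602 with scrambled miRNA). Of 10 Schwann and glial markers 2 were tested, S100B and GAP43 (the second also a gene of neurons), and the list summed to 91.8 to 94.4 FPKM with LncND siRNA against 45.2 to 49.4 with scrambled siRNA, and to 60.9 to 61.6 with the mimic against 48.9 to 49.4 with scrambled miRNA. Both rose with LncND siRNA, and with the mimic GAP43 rose (0.38) and S100B fell (−0.35). The part of these markers in the kinesin results was not tested. In bulk RNA, fewer cells expressing a gene and less RNA per cell cannot be told apart.

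Testing was limited to genes that averaged 1 FPKM or more, which took in 35 kinesins with LncND siRNA and 36 with the mimic. KIF2B, a microtubule depolymerase, was listed at the lowest value of 0.001 FPKM in all 10 libraries. KIF4B, an intronless copy of KIF4A, stayed at 0.0251 to 0.0841 FPKM, and reads shared by these near-identical copies could be split by the counting, so values of both are uncertain to that extent. KIF6, KIF12, KIF19 and KIF25 were also under 1 FPKM everywhere. KIF17, a dendritic motor known from mouse neurons, was tested in the miRNA table alone.

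With LncND siRNA all 12 tested mitotic kinesins fell, while the transport kinesins went both ways. The first count depends on how the classes were drawn. KIF2A, a relative of the mitotic KIF2B and KIF2C, was placed among the other kinesins. It passed the test neither with LncND siRNA (log2 fold change 0.04) nor with the mimic (−0.09). The mitotic genes lay between −1.01 and −0.70 on the log2(FPKM + 1) scale, with a median of −0.89, and all 12 were lower by at least 1.5-fold. Of 15 tested transport kinesins 5 rose, 4 fell and 6 did not pass the test, with a median of 0.03. The background was an adjusted p under 0.05 (limma, Benjamini-Hochberg) and lower in 30.3% of 12601 genes, and higher in 36.6%. Transport kinesins were thus called higher and lower at shares near those of all genes. A fall of at least 1.5-fold was called in 4.06% of genes, and a rise of that size in 8.28%. Over all genes tested the median log2 fold change was 0.02. As deposited, 4613 genes were higher and 3818 lower. Median-ratio scaling turned this split to 3946 higher and 4520 lower, and quantile normalization to 4028 higher and 4655 lower. In either direction 24 of 35 kinesins passed, against 66.9% of genes. No LncND siRNA library crossed a scrambled one for 26 of 35 kinesins, 19 lower and 7 higher, against 70.9% of genes, 32.2% lower and 38.7% higher.

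Among the motors that make the spindle bipolar, KIF11, the kinesin-5 that slides antiparallel microtubules apart (hg19 chr10:94352825-94415152), had 14.99, 13.96 and 13.5 FPKM with LncND siRNA, against 25.2, 23.7 and 24.4 with scrambled siRNA. The groups were well apart, with a log2 fold change of −0.75 (SE 0.045, adjusted p = 3.91e-07, limma). KIF15, the kinesin-12 that keeps the spindle bipolar once it has formed, had 6.60, 5.80 and 5.52 FPKM with LncND siRNA, against 12.6, 12.3 and 12.4 with scrambled siRNA, a log2 fold change of −0.95 (SE 0.056). KIFC1, the minus-end motor that focuses spindle poles, fell by 0.89.

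Motors of the central spindle and of cytokinesis fell by similar amounts. KIF20A (hg19 chr5:137514417-137523404) brings the chromosomal passenger complex to the central spindle. Its libraries read 15.1, 14.005 and 13.9 FPKM with LncND siRNA, against 29.85, 29.90 and 29.98 with scrambled siRNA, and it had the lowest log2 fold change of the class (−1.01, SE 0.040, adjusted p = 3.19e-08, limma). KIF23 forms centralspindlin with RACGAP1. It had 11.7, 11.03 and 10.7 FPKM with LncND siRNA, against 21.7, 20.4 and 21.6 with scrambled siRNA, a log2 fold change of −0.87 (SE 0.044). KIF20B, which acts late in cytokinesis, had 4.94, 4.98 and 4.81 FPKM with LncND siRNA, against 10.6, 9.95 and 10.1 with scrambled siRNA, a log2 fold change of −0.92 (SE 0.042). In none of these genes did a LncND siRNA library reach a scrambled one. KIF14, which recruits citron kinase to the midbody, fell by 0.82.

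Chromosome-bound and plus-end motors completed the class. KIF4A, a chromokinesin that with PRC1 sets the length of the central spindle, had 12.5, 10.8 and 11.3 FPKM with LncND siRNA, against 21.9, 21.7 and 22.4 with scrambled siRNA, a log2 fold change of −0.88 (SE 0.050). KIF22, the chromokinesin that pushes chromosome arms from the poles, had the smallest fall of the 12, by 0.70. KIF18A, which dampens chromosome oscillations, fell by 0.82 and KIF18B, which shortens astral microtubules, by 0.92. KIF2C, the depolymerase that corrects wrong attachments at centromeres, fell by 0.92.

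**Figure D2:**
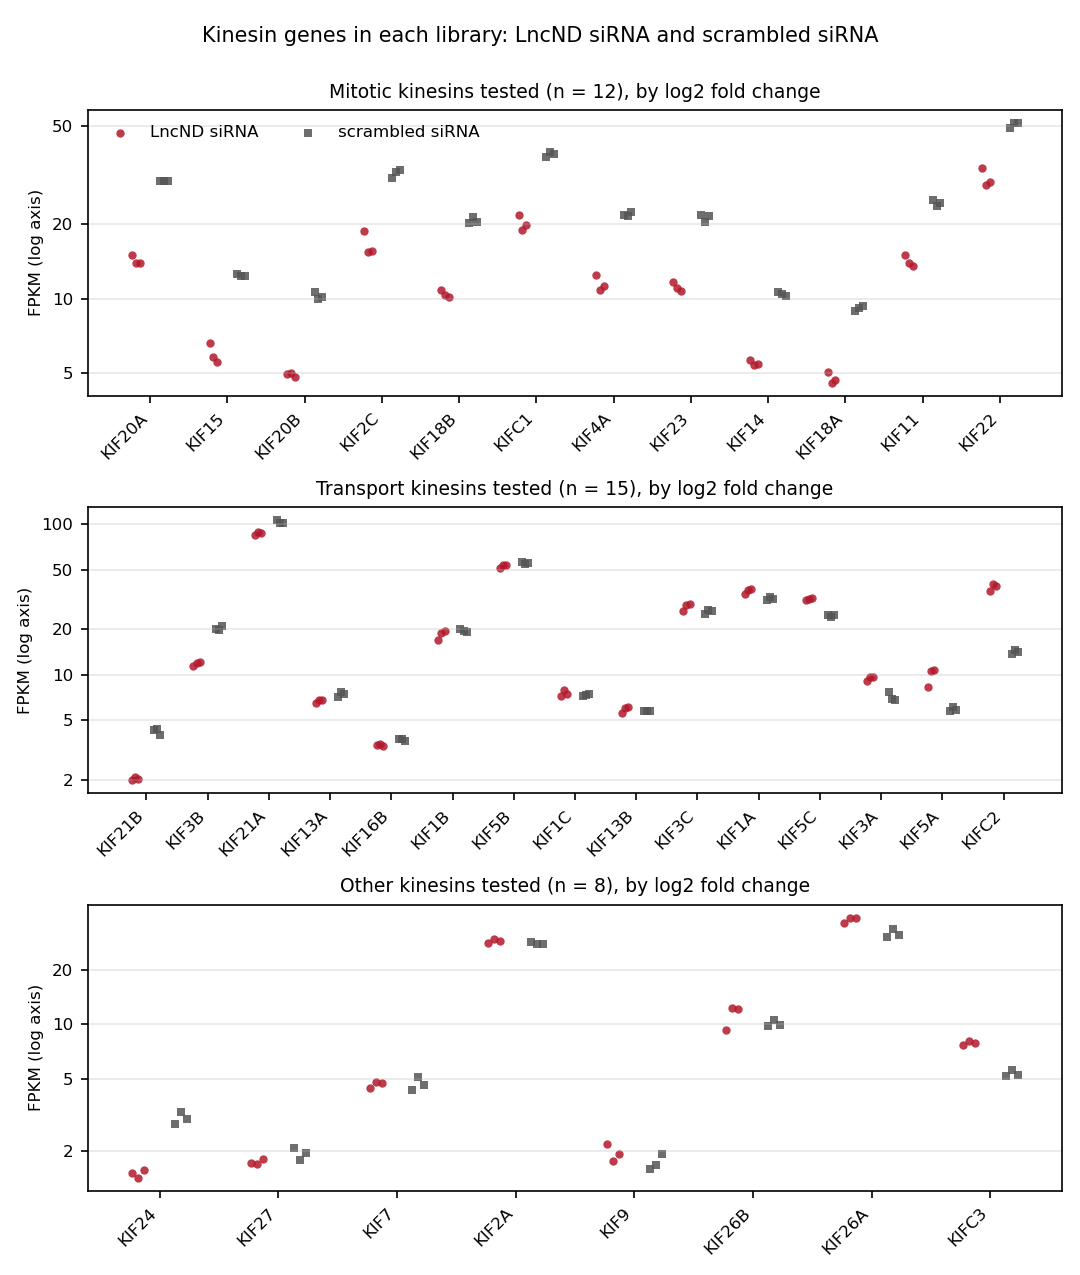
FPKM (log axis) of every tested kinesin in each library of the siRNA table, LncND siRNA as circles and scrambled siRNA as squares, in 3 panels by class and ordered by log2 fold change. No symbol of LncND siRNA reaches one of scrambled siRNA in the mitotic panel, while the transport panel holds falls (KIF21B), overlaps (KIF1C) and rises (KIFC2).

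Kinesin-1 heavy chains, which with light chains carry a wide range of cargo down axons, split by gene with LncND siRNA. KIF5A, the neuron-enriched form, had 8.28, 10.6 and 10.8 FPKM with LncND siRNA, against 5.69, 6.07 and 5.79 with scrambled siRNA, a log2 fold change of 0.66 (SE 0.082, adjusted p = 5.46e-05, limma). KIF5C, also neuron-enriched (hg19 chr2:149632792-149883273), had 31.3, 32.0 and 32.3 FPKM with LncND siRNA, against 25.0, 24.3 and 25.1 with scrambled siRNA, a log2 fold change of 0.35 (SE 0.034). Both sets of libraries were apart, with LncND siRNA replicate 1 lowest of its group for each. KIF5B, the form found in most cell types, had a log2 fold change of −0.06 and did not pass the test.

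Kinesin-2 motors and the kinesin-3 family also divided. KIF3A had 9.04, 9.64 and 9.60 FPKM with LncND siRNA, against 7.66, 6.92 and 6.75 with scrambled siRNA, a log2 fold change of 0.36 (SE 0.052). Its partner in heterotrimeric kinesin-2, KIF3B (hg19 chr20:30865454-30922811), went the other way: 11.5, 12.0 and 12.1 FPKM with LncND siRNA, against 20.02, 19.8 and 21.1 with scrambled siRNA, a log2 fold change of −0.73 (SE 0.041, adjusted p = 2.44e-07, limma). Together these subunits build intraflagellar transport motors as well as axonal ones. KIF3C, an alternative partner of KIF3A, had a log2 fold change of 0.11 and missed the threshold (adjusted p = 0.0559, limma), and passed it without LncND siRNA replicate 1 (0.15, adjusted p = 0.00552). KIF1A, the kinesin-3 that carries synaptic vesicle precursors and dense-core vesicles, had 34.2, 36.7 and 37.0 FPKM with LncND siRNA, against 31.4, 33.0 and 31.8 with scrambled siRNA, a log2 fold change of 0.16 (SE 0.042). Its 2 groups lay close but did not overlap. KIF1B and KIF1C, of the same family, and KIF13B did not pass the test, with log2 fold changes of −0.08, 0.03 and 0.03.

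Among the remaining transport kinesins were the largest rise and the largest fall of the class. KIFC2, a minus-end directed kinesin described in mouse neurons, had 36.3, 40.1 and 39.1 FPKM with LncND siRNA, against 13.8, 14.7 and 14.1 with scrambled siRNA. Its means of 38.5 ± 2.0 and 14.2 ± 0.44 FPKM (SD, n = 3 each) stood 2.71-fold apart, a log2 fold change of 1.38 (SE 0.045, adjusted p = 1.07e-08, limma). KIF21B, a kinesin-4 of neurons, had 1.98, 2.07 and 2.02 FPKM with LncND siRNA, against 4.30, 4.37 and 3.97 with scrambled siRNA, a log2 fold change of −0.78 (SE 0.052). Its paralogue KIF21A, which restrains microtubule growth and was the transport kinesin of highest mean FPKM, had 84.7, 88.7 and 87.4 FPKM with LncND siRNA, against 106, 102 and 102 with scrambled siRNA, a log2 fold change of −0.24 (SE 0.038). These paralogues thus fell together. The endosomal motor KIF13A had 6.48, 6.83 and 6.73 FPKM with LncND siRNA, against 7.13, 7.69 and 7.46 with scrambled siRNA, a log2 fold change of −0.13 (adjusted p = 0.0213, limma). That call was lost without scrambled siRNA replicate 2 (adjusted p = 0.0798) or 3 (adjusted p = 0.0625). KIF16B, which binds early endosomes, had 3.39, 3.47 and 3.35 FPKM with LncND siRNA, against 3.71, 3.72 and 3.63 with scrambled siRNA, and did not pass the test (adjusted p = 0.108, limma). KIF17 had 0.881, 0.980 and 1.21 FPKM with LncND siRNA, against 0.720, 0.716 and 0.753 with scrambled siRNA, and was not tested.

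Of 8 other kinesins tested with LncND siRNA, 2 rose, 1 fell and 5 did not pass the test, against 36.6% of all genes higher and 30.3% lower. KIFC3, a minus-end motor of cell junctions, had 7.66, 8.10 and 7.91 FPKM with LncND siRNA, against 5.21, 5.58 and 5.23 with scrambled siRNA, a log2 fold change of 0.49 (SE 0.044). KIF26A, an atypical kinesin that restrains RET signalling in mouse enteric neurons, had 36.6, 38.6 and 38.8 FPKM with LncND siRNA, against 30.3, 33.6 and 31.2 with scrambled siRNA, a log2 fold change of 0.26 (SE 0.046). KIF24, a centriolar kinesin that suppresses cilia in dividing cells, had 1.51, 1.42 and 1.56 FPKM with LncND siRNA, against 2.80, 3.28 and 2.99 with scrambled siRNA, a log2 fold change of −0.69 (SE 0.061). KIF24 was the lone member of this class to fall, and the lone member with CHR letters among the promoters found. Of the mitotic class, KIF20A (−1.01) and KIF2C (−0.92) fell without CHR letters, and the transport gene KIF5B held them and did not pass the test. The part of these letters was not tested. KIF26B had 9.37, 12.3 and 12.2 FPKM with LncND siRNA, against 9.74, 10.6 and 9.95 with scrambled siRNA, and passed the test only without LncND siRNA replicate 1 (log2 fold change 0.26, adjusted p = 0.000745, limma). KIF2A, KIF7, KIF9 and KIF27 had log2 fold changes between −0.10 and 0.12.

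With the miR-143-3p mimic all 12 tested mitotic kinesins fell again, 11 of them by at least 1.5-fold, and the transport kinesins again went both ways. The mitotic genes lay between −1.002 and −0.37, with a median of −0.78. Of 16 transport kinesins 4 rose, 7 fell and 5 did not pass the test, with a median of −0.08. With no filter on low values 1 rose, and 4 fell without scrambled miRNA replicate 2. Over all 12558 genes tested, 38.6% were called lower and 24.6% higher, 9.13% were lower by at least 1.5-fold, 3.98% were higher by that much, and the median was −0.06. Calls among transport kinesins, 4 higher and 7 lower of 16, were thus at shares near those of all genes. In either direction 26 of 36 kinesins passed, against 63.3% of genes. Libraries did not overlap for 32 of 36 kinesins, 25 lower and 7 higher, against 81.9% of genes, 48.2% lower and 33.7% higher. Median-ratio scaling put 3970 genes higher and 4034 lower, and quantile normalization 4141 higher and 3860 lower, against 3094 higher and 4853 lower as deposited. Under both scalings 12 mitotic kinesins were lower, as were 6 transport kinesins, and 4 transport kinesins were higher.

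KIF11 had 11.4 and 11.5 FPKM with the mimic, against 20.4 and 20.8 with scrambled miRNA, a log2 fold change of −0.80 (SE 0.049, adjusted p = 1.01e-06, limma). KIF20A had 13.6 and 14.6 FPKM with the mimic, against 25.1 and 26.2 with scrambled miRNA, a log2 fold change of −0.82 (SE 0.053). KIF23 had 14.2 and 15.4 FPKM with the mimic, against 22.3 and 23.4 with scrambled miRNA, a log2 fold change of −0.60 (SE 0.056). For all 3 the libraries of each group lay close together and the groups were apart. KIF20B had 4.01 and 4.59 FPKM with the mimic, against 9.30 and 9.91 with scrambled miRNA, the lowest log2 fold change of the class (−1.002, SE 0.073). KIF4A had 9.73 and 9.90 FPKM with the mimic, against 18.4 and 19.0 with scrambled miRNA, a log2 fold change of −0.86 (SE 0.052). KIF15 had 5.97 and 6.44 FPKM with the mimic, against 10.0 and 10.7 with scrambled miRNA, a log2 fold change of −0.66 (SE 0.064). KIF22 was again the mitotic kinesin that fell least, by 0.37, and the 5 others of the class fell by 0.65 to 0.82.

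**Figure D3:**
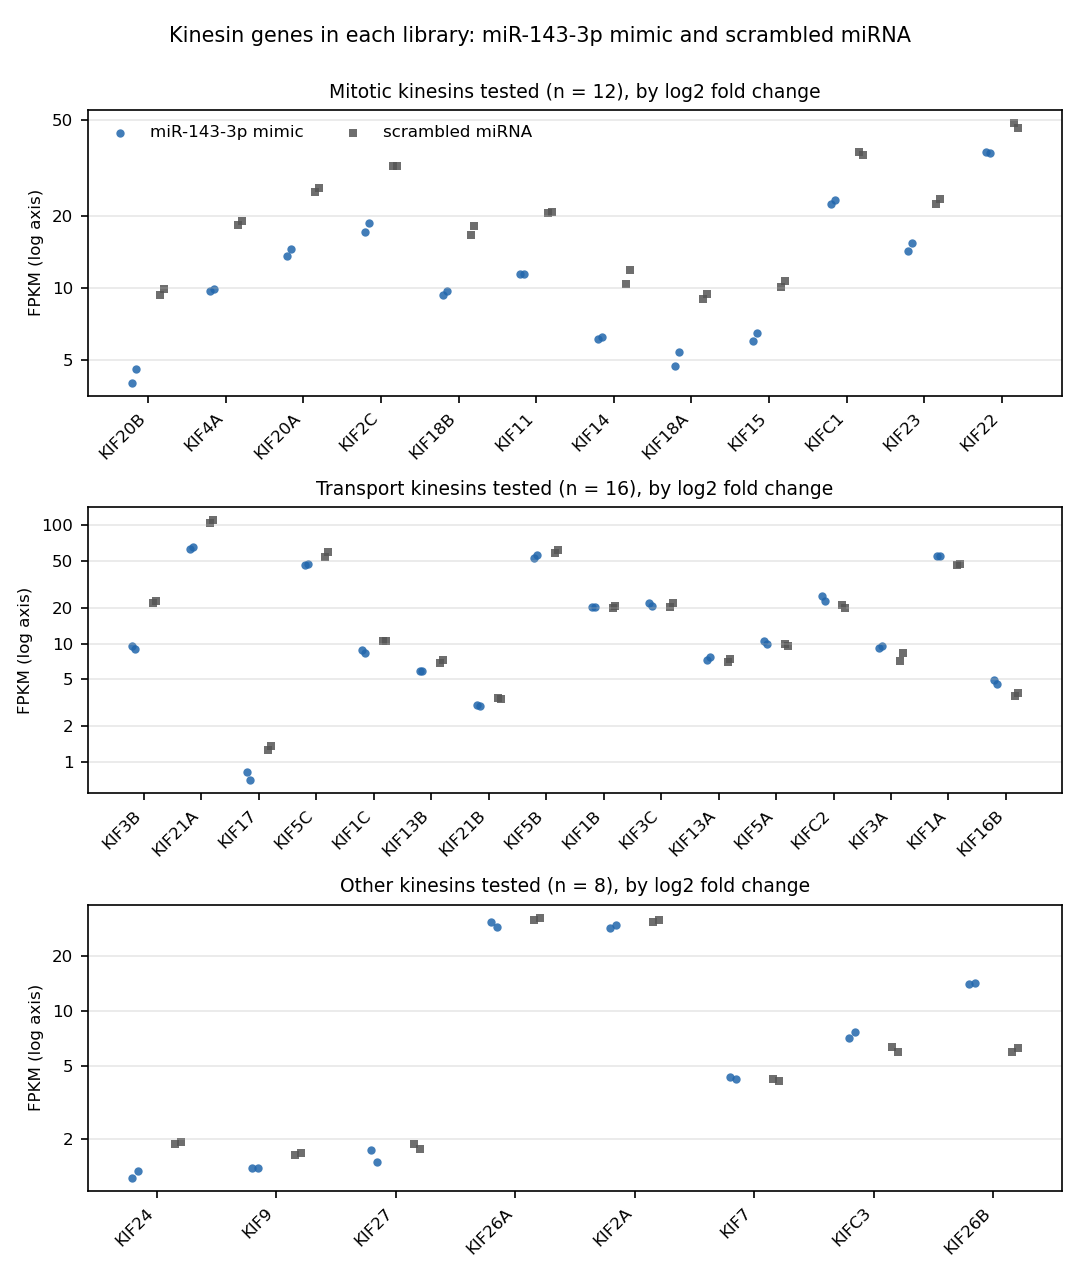
FPKM (log axis) of every tested kinesin in each library of the miRNA table, mimic as circles and scrambled miRNA as squares, in 3 panels by class and ordered by log2 fold change. The 12 mitotic genes are apart and lower with the mimic; in the transport panel KIF3B and KIF21A lie furthest below, and in the panel of other kinesins KIF26B stands above.

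Among transport kinesins the largest fall with the mimic was that of KIF3B, the kinesin-2 subunit, with 9.56 and 9.03 FPKM against 22.2 and 23.1 with scrambled miRNA. Its log2 fold change of −1.20 (SE 0.054, adjusted p = 1.68e-07, limma) was also the lowest of all 36 kinesins tested. KIF3A, its partner, had 9.16 and 9.54 FPKM with the mimic, against 7.14 and 8.403 with scrambled miRNA, a log2 fold change of 0.24 (SE 0.075, adjusted p = 0.0175, limma). This smaller rise was lost without mimic replicate 2 (adjusted p = 0.0606) or scrambled miRNA replicate 1 (0.14, adjusted p = 0.178). KIF21A had 63.0 and 65.9 FPKM with the mimic, against 104 and 109.8 with scrambled miRNA, a log2 fold change of −0.72 (SE 0.047). KIF21B had 3.04 and 3.00 FPKM with the mimic, against 3.46 and 3.42 with scrambled miRNA, and did not pass the test (adjusted p = 0.103, limma). KIF17, low in this table, had 0.823 and 0.703 FPKM with the mimic, against 1.26 and 1.38 with scrambled miRNA, a log2 fold change of −0.40 (SE 0.094).

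The kinesin-1 chain KIF5C had 46.6 and 46.7 FPKM with the mimic, against 54.3 and 59.6 with scrambled miRNA, a log2 fold change of −0.28 (SE 0.051, adjusted p = 0.000932, limma). With no filter on low values this call was lost (adjusted p = 0.0742). KIF5A had 10.5 and 9.85 FPKM with the mimic, against 10.0 and 9.48 with scrambled miRNA, and did not pass the test (log2 fold change 0.06, 95% interval −0.08 to 0.19). Of the 2 neuron-enriched chains, then, KIF5C fell and KIF5A overlapped between groups. KIF5B fell by 0.14 (adjusted p = 0.0348, limma), a call lost without mimic replicate 1 (adjusted p = 0.133) or scrambled miRNA replicate 2 (adjusted p = 0.278) and under both scalings. KIF1C and KIF13B, of the kinesin-3 family, fell by 0.26 and 0.23, the second not without scrambled miRNA replicate 2 (adjusted p = 0.0725).

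Rises with the mimic were small in this class. KIF1A had 55.4 and 54.7 FPKM with the mimic, against 45.9 and 46.7 with scrambled miRNA, a log2 fold change of 0.24 (SE 0.042, adjusted p = 0.00065, limma). KIF16B had 4.90 and 4.56 FPKM with the mimic, against 3.59 and 3.83 with scrambled miRNA, a log2 fold change of 0.28 (SE 0.072), a call lost with no filter on low values (adjusted p = 0.0733). KIFC2 had 25.2 and 22.9 FPKM with the mimic, against 21.1 and 20.2 with scrambled miRNA, a log2 fold change of 0.21 (SE 0.057, adjusted p = 0.00936, limma). None of these rises reached 1.5-fold, and that of KIFC2 was lost without mimic replicate 1 (0.14, adjusted p = 0.0577) or scrambled miRNA replicate 2 (adjusted p = 0.0597). KIF13A had 7.30 and 7.69 FPKM with the mimic, against 6.95 and 7.44 with scrambled miRNA, and the groups overlapped. KIF1B and KIF3C had log2 fold changes of −0.02 and 0.01 and did not pass the test.

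Of 8 other kinesins 2 rose with the mimic, 1 fell and 5 did not pass the test, against 24.6% of all genes higher and 38.6% lower. KIF26B, an atypical kinesin of cell polarity and adhesion (hg19 chr1:245318287-245866428), had 13.9 and 14.2 FPKM with the mimic, against 5.95 and 6.25 with scrambled miRNA. Its means of 14.1 ± 0.17 and 6.10 ± 0.21 FPKM (SD, n = 2 each) stood 2.31-fold apart, a log2 fold change of 1.09 (SE 0.057, adjusted p = 3.96e-07, limma). KIFC3 had 7.11 and 7.70 FPKM with the mimic, against 6.34 and 5.97 with scrambled miRNA, a log2 fold change of 0.23 (SE 0.066), lost without mimic replicate 2 (adjusted p = 0.0694) or scrambled miRNA replicate 2 (adjusted p = 0.0826). KIF24 had 1.23 and 1.33 FPKM with the mimic, against 1.87 and 1.92 with scrambled miRNA, a log2 fold change of −0.34 (SE 0.085). The kinesin that suppresses cilia was therefore lower in both treatments. KIF26A had 30.4 and 28.8 FPKM with the mimic, against 31.4 and 32.1 with scrambled miRNA, and did not pass the test (adjusted p = 0.099, limma). KIF2A, KIF7, KIF9 and KIF27 had log2 fold changes between −0.16 and 0.02.

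**Figure D4:**
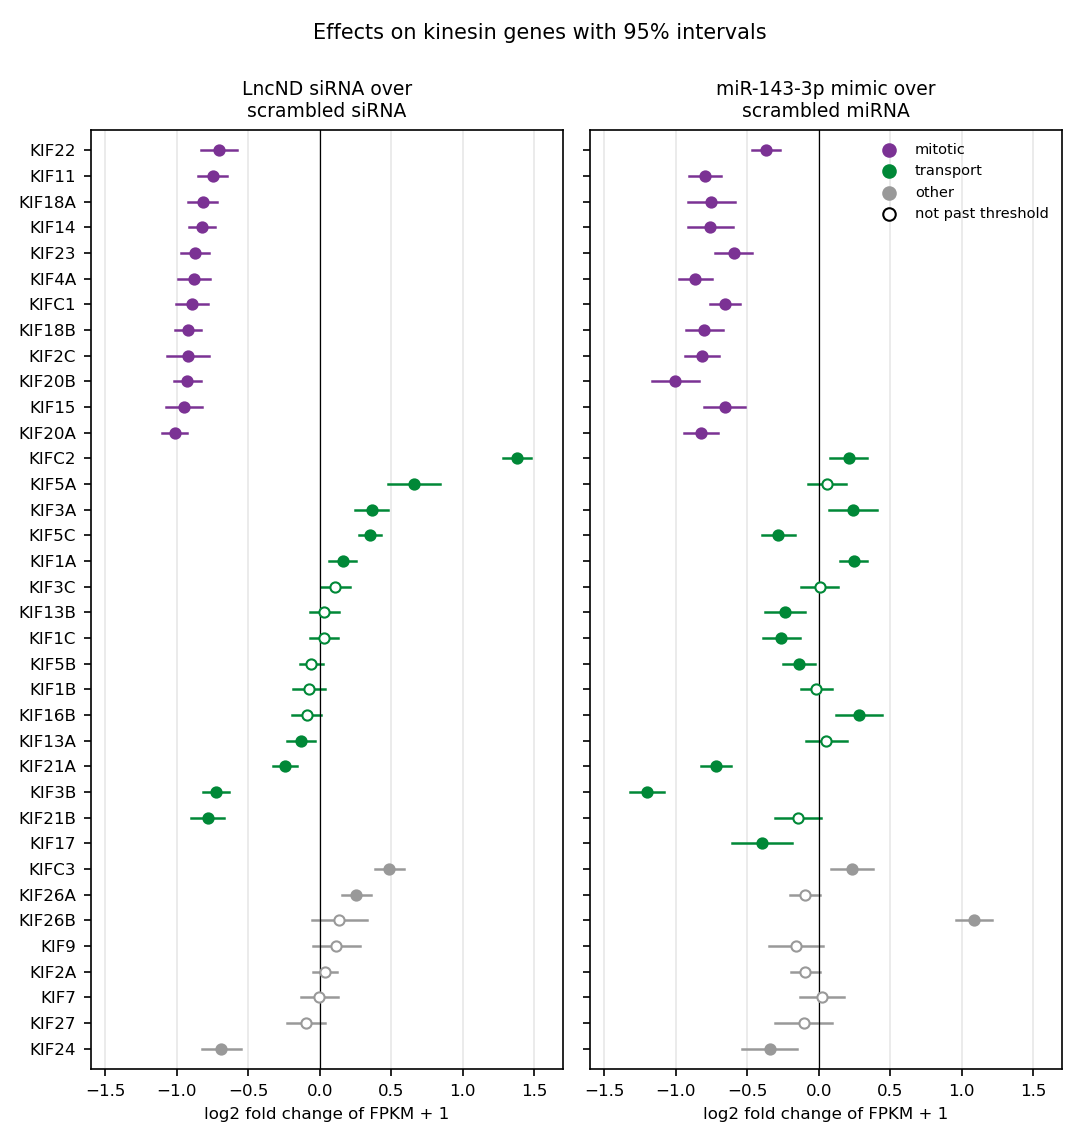
Log2 fold change of FPKM + 1 with its 95% interval for each tested kinesin, LncND siRNA over scrambled siRNA on the left and the mimic over scrambled miRNA on the right; filled symbols passed the threshold of 0.05 on the adjusted p. All 12 mitotic genes lie left of 0 in both panels, while the transport genes spread from −0.78 to 1.38 with LncND siRNA and from −1.20 to 0.28 with the mimic.

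Matches to the seed of miR-143-3p stood in kinesins that fell, rose or did not pass the test with the mimic: 6 of 11 kinesins with a match fell, and 14 of 25 without one, against 1286 of 2780 genes with a match and 3109 of 8440 without one. Of 36 tested kinesins 11 had a match in the 3′ UTR (30.6%), against 24.8% of the 11220 tested genes with a UTR searched. The median log2 fold change with the mimic was −0.26 with a match and −0.23 with none. Over all genes tested it was −0.12 with a match and −0.05 without one, in UTRs of 3014 and 1046 bases at the median, so the 2 sets also differ in length. Among mitotic kinesins 3 had a match, with a median of −0.80, and the 9 without a match had −0.75. Among transport kinesins 6 had a match, KIF1B, KIF1C, KIF3A, KIF3B, KIF3C and KIF5C, with a median of −0.14, against −0.04 for the 10 without. KIF3B, with the largest fall, had 2 matches in its UTR of 3692 bases. KIF3C held the lone 8mer among tested kinesins and had a log2 fold change of 0.01. KIF26B, which rose, had 1 match, and KIF21A, which fell by 0.72, had none.

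Both treatments together gave a simple pattern for the mitotic class as drawn here, without KIF2A. Calls in the transport class were mixed, as they were over all genes. All 12 mitotic kinesins were lower in both, against 2027 of 12327 genes tested in both. Among 15 transport kinesins KIF3B and KIF21A were lower in both and KIF1A, KIF3A and KIFC2 higher in both. With the mimic the calls of KIF3A and KIFC2 were lost on leaving out some single libraries. Fewer transport kinesins rose with the mimic when no filter on low values was used. Over all 12327 genes, 2027 were lower in both and 1552 higher in both. KIF5C was higher with LncND siRNA and lower with the mimic (the second not with no filter on low values), as were 1310 genes of all tested. No transport kinesin was called the other way round, against 575 of all 12327 genes. KIF1B and KIF3C passed in neither comparison, nor did 1717 of the 12327 genes. The 2 comparisons share no control library.

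Summed over all members, mitotic kinesins made 162, 144 and 145 FPKM with LncND siRNA, against 279, 282 and 284 with scrambled siRNA. With the mimic they made 155 and 162 FPKM, against 259.6 and 264 with scrambled miRNA. Mitotic kinesins thus supplied 23.9 to 27.4% of the summed kinesin FPKM with LncND siRNA, against 39.7 to 40.2% with scrambled siRNA, and 26.3 to 27.2% with the mimic, against 34.4 to 35.1% with scrambled miRNA. Transport kinesins summed to 336, 359 and 358 FPKM with LncND siRNA, against 339, 336 and 336 with scrambled siRNA. The overlap came from LncND siRNA replicate 1, and without it both LncND siRNA libraries lay above all 3 scrambled ones. In these sums KIFC2 alone made 36.3, 40.1 and 39.1 FPKM with LncND siRNA, against 13.8, 14.7 and 14.1 with scrambled siRNA. The gap of this 1 gene was wider than that of the class sums. With the mimic they summed to 346 and 346 FPKM, against 396 and 417 with scrambled miRNA, a gap to which KIF21A contributed most.

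**Figure D5:**
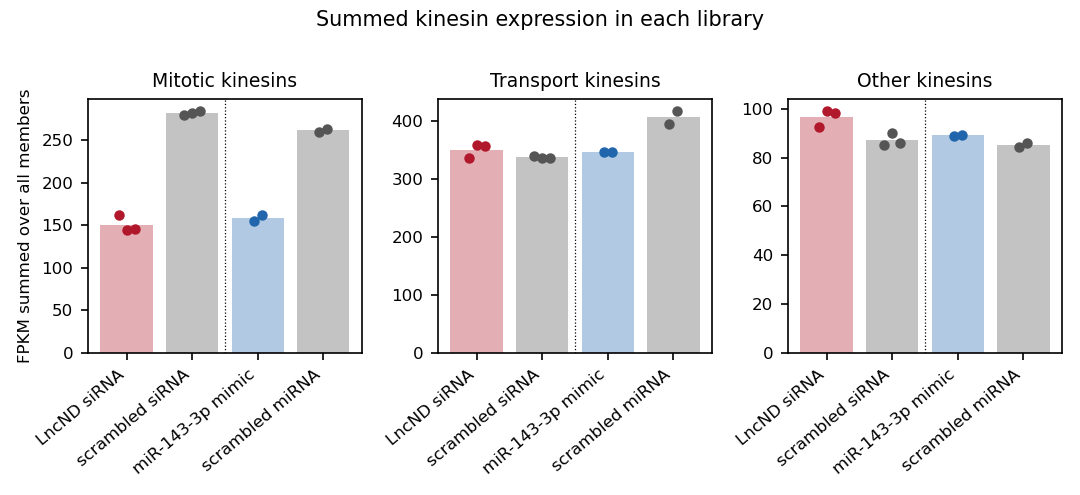
FPKM summed over all kinesins of a class in each library (points) with the group mean (bars), for LncND siRNA, scrambled siRNA, the mimic and scrambled miRNA; the dotted line parts the 2 tables. The mitotic sums are lower in both treated groups, 144 to 162 and 155 to 162 FPKM, than in their controls, 279 to 284 and 260 to 264 FPKM.

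The difference of the 2 effects, mimic minus LncND siRNA, was tested for 35 kinesins in 1 fit of all 10 libraries, and 20 passed, 10 in each direction. Of 12327 genes 60.2% passed, 22.0% higher with the mimic and 38.1% lower. Either scaling moved the median of all differences up by 0.12 and turned that split to 3994 higher and 3506 lower (median-ratio) or 4175 higher and 3464 lower (quantile), and among kinesins to 12 higher and 7 lower. Under both scalings KIF9, KIF13B and KIFC3 no longer passed, and KIF1A and KIF18B did. Of 15 transport kinesins 10 passed, a share near that of all genes. The difference was −1.17 for KIFC2 (adjusted p = 3.6e-08, limma), −0.63 for KIF5C (adjusted p = 1.33e-06) and −0.60 for KIF5A (adjusted p = 0.000708). It was −0.48 for KIF21A and −0.47 for KIF3B, both of which fell further with the mimic. KIF21B went the other way with 0.64 (adjusted p = 1.33e-05, limma). Of 12 mitotic kinesins 5 passed, KIF15, KIF20A, KIF22, KIF23 and KIFC1, all with the smaller fall under the mimic (differences of 0.19 to 0.34). For KIF11 the difference was −0.05 with a 95% interval of −0.19 to 0.10, and for KIF4A it was 0.02 with an interval of −0.14 to 0.18. The differences of KIF15 and KIF20A were lost without mimic replicate 2 (adjusted p = 0.0547 and 0.105) or scrambled miRNA replicate 1 (adjusted p = 0.057 and 0.0933). That of KIF13A was lost without any 1 of 6 libraries, among them mimic replicate 2 (adjusted p = 0.134). That of KIF9 was lost without any 1 of 8 libraries (adjusted p = 0.058 to 0.099) and under both scalings, and that of KIFC3 without mimic replicate 1 (adjusted p = 0.0517) or scrambled miRNA replicate 1 (adjusted p = 0.0508). The differences of KIF2A and KIF2C passed without LncND siRNA replicate 1 (adjusted p = 0.0269 and 0.0234). KIF9 overlaps an antisense gene while the use of strand in counting is not given.

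Genes whose products work with mitotic kinesins moved as these did. The list of 25 partners, all tested, includes CENPE, itself a mitotic kinesin that the choice by name missed. Its log2 fold change was −0.93 with LncND siRNA and −0.85 with the mimic. Of the 25 listed genes 24 fell with LncND siRNA and none rose, with a median of −0.87, against 30.3% of all genes lower. The largest falls were those of CENPF, a kinetochore protein (−1.17), ANLN, the scaffold anillin of the contractile ring (−1.03), and HMMR, a spindle assembly factor (−0.99). With the mimic 24 of 25 fell, against 38.6% of all genes, with a median of −0.85, and the largest falls were those of HMMR (−1.77), AURKB, the kinase of the chromosomal passenger complex (−1.33), and SGOL1, which protects centromeric cohesion (−1.08). NUMA1, a spindle pole protein that dividing and resting cells both express, did not pass in either comparison (−0.12 and 0.05). With LncND siRNA its libraries were lower without overlap, and all 25 partners were called lower with median-ratio scaling, with the replicate block or without LncND siRNA replicate 3.

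Listed regulators of cell cycle genes were also mostly lower. The list held E2F and TFDP factors and the pocket proteins RBL1 and RBL2 beside FOXM1, MYBL2 and MuvB subunits. Its counts therefore do not separate activators from repressors. Of 15 such regulators, all tested, 13 fell and 1 rose with LncND siRNA, and 9 fell and 1 rose with the mimic, against 30.3% and 38.6% of all genes lower. With no filter on low values 5 regulators fell with the mimic, and under median-ratio and quantile scaling 2 and 4 rose. FOXM1 had a log2 fold change of −1.03 with LncND siRNA and −1.42 with the mimic, and MYBL2, the B-MYB partner of the MuvB core, −0.78 and −1.46. The MuvB subunit LIN37 was the member that rose, by 0.45 and 0.50. The third largest falls were those of RBL1, a pocket protein, with LncND siRNA (−0.75) and LIN52, a MuvB subunit, with the mimic (−0.68).

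Adaptors and partners of transport kinesins rose more often than they fell. Of 32 listed, 27 were tested with LncND siRNA, of which 16 rose and 2 fell, with a median of 0.25, against 36.6% of all genes higher and 30.3% lower. MAPK8IP1, a JIP scaffold that links cargo to kinesin-1, and FEZ1, a kinesin-1 adaptor, each had a log2 fold change of 0.85, as did PPFIA3, a liprin that binds KIF1A. APBA1 (−0.21) and PPFIA1 (−0.19) fell. With the mimic 28 were tested, of which 15 rose and 4 fell, with a median of 0.15, against 24.6% of all genes higher and 38.6% lower. The kinesin light chains parted: KLC1 rose (0.67) and KLC2 fell (−1.10), with 21.4 and 21.4 FPKM of KLC2 with the mimic against 47.0 and 47.2 with scrambled miRNA. KIDINS220 (0.66) and MAPK8IP3 (0.59) also rose, and FEZ1 (−0.65) and TRAK2, a mitochondrial adaptor (−0.26), fell. FEZ1 thus passed in both comparisons, in opposite directions. KIFAP3, the third subunit of heterotrimeric kinesin-2, rose in both, by 0.55 with LncND siRNA and 0.39 with the mimic, like KIF3A and unlike KIF3B.

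Dynein and dynactin genes, which drive transport toward microtubule minus ends, gave 15 rises and 4 falls among 26 tested with LncND siRNA (median 0.18), against 36.6% of all genes higher and 30.3% lower. The dynein light chains DYNLT1 (0.48) and DYNLT3 (0.43) and the dynactin subunit ACTR10 (0.33) rose most. NDE1, a dynein regulator needed in neural progenitor division, fell furthest (−0.73), followed by the cargo adaptors BICD2 (−0.34) and HOOK3 (−0.29). With the mimic there were 8 rises and 10 falls among 26 (median −0.03), shares near those of all genes (24.6% higher and 38.6% lower). DYNLT3 (1.11), DYNC1LI2 (0.71) and PAFAH1B1 (0.36) rose most, and NDE1 (−0.77), DYNLT1 (−0.61) and DYNLL2 (−0.47) fell most.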

How the data were processed

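Per the file headers the authors deposited FPKM, with siRNA and miRNA libraries in separate tables; a few cells hold a status word, so the deposited columns are recorded as a score read as FPKM. TopHat (listed as version 1.0.0), Cufflinks and hg19 appear per the submitters' processing notes. Which annotation was used, the use of strand in counting (the library kit is stranded per the labels' protocols) and library sizes were not found among these sources. FPKM scale to a library's total, so abundant transcripts can lower all others.

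The 2-sided test was limma 3.58.1 in R 4.3.3 (lmFit, eBayes with trend) on log2(FPKM + 1), run within a table on genes averaging 1 FPKM or more, with Benjamini-Hochberg adjustment over all genes tested and a threshold of 0.05; low genes' changes are understated on this scale. The difference of effects came from a joint fit of the 10 libraries with 1 mean per group, each effect taken within its own table. The script was tested on simulated data. Starts of hg19 loci were converted to count from 1. Depth was estimated from olfactory receptor genes and entered no test.

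Members, classes, lists and tests were chosen with earlier results of these data known. Values in every library are given for KIF11, KIF20A, KIF23, KIF1A, KIF5A and KIF5C, for the 3 called members of each class with the largest change in each direction and comparison, for called mitotic or transport members against their class median, and for members called in opposite directions; up to 3 called genes in each direction are named from each partner list, with KIFAP3 and NUMA1 added after their values were seen. Genes of the list of other cell types were used as counts and sums: noradrenergic, Schwann and glial, endothelial and blood, epithelial, and mesenchymal. Other pseudocounts, filters, scalings, fits without the trend, summed rows, a replicate block and leaving out each replicate were tried.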

Additional observations from a re-analysis of the deposited data

Results flagged for a closer look

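For 20 kinesins the effect of the mimic differed from that of LncND siRNA (limma, 1 fit of all 10 libraries, adjusted p under 0.05). Among transport kinesins the differences, mimic minus LncND siRNA on the log2 scale, were −1.17 for KIFC2, −0.63 for KIF5C, −0.60 for KIF5A, −0.48 for KIF21A, −0.47 for KIF3B, −0.29 for KIF1C and −0.26 for KIF13B. They were 0.64 for KIF21B, 0.37 for KIF16B and 0.19 for KIF13A. KIF5C was the kinesin called in opposite directions, its fall with the mimic not being called with no filter on low values (adjusted p = 0.0742). Among mitotic kinesins they were 0.34 for KIF22, 0.29 for KIF15, 0.28 for KIF23, 0.24 for KIFC1 and 0.19 for KIF20A. Among other kinesins they were 0.95 for KIF26B, 0.34 for KIF24, −0.35 for KIF26A, −0.27 for KIF9 and −0.26 for KIFC3. Those of KIF9, KIF13B and KIFC3 were lost under both scalings, and those of KIF9, KIF13A, KIF15, KIF20A and KIFC3 without at least 1 single library. The treatments differ in agent, dose and control, and the tables in number of libraries, so what a difference reflects was not tested.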

How the results depend on the processing

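All 12 tested mitotic kinesins were lower in both comparisons under every alternative run, and no called kinesin changed sign. Replicate numbers gave no pairing, and not every library correlated best with its own number (same-number correlations 0.07, 0.21 and −0.05 for siRNA, and 0.13 with 2 pairs for the miRNA table). With the replicate block, 4406 genes were higher and 3616 lower with LncND siRNA, 3243 and 5004 with the mimic; the block called KIF3C with LncND siRNA (adjusted p = 0.049) and lost the difference of KIF9 (adjusted p = 0.0668). With no filter on low values the mimic gave 2000 genes higher and 3327 lower.

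Transport kinesins depended more on settings. With LncND siRNA their median of 0.0296 was −0.0176 with median-ratio scaling and −0.0172 with quantile normalization. With the mimic the count of rises was 1 with no filter, the count of falls 4 to 7 when leaving out each replicate, and the median, −0.0759, was −0.0156 at a mean of at least 5 FPKM, −0.0058 with median-ratio scaling, −0.0018 with quantile normalization and −0.0762 to 0.0178 when leaving out each replicate. The mitotic median with the mimic, −0.777, was −0.845 and −0.812 with pseudocounts of 0.1 and 0.5, −0.753 with no filter, −0.711 and −0.708 with median-ratio and quantile scaling, and −0.812 to −0.731 when leaving out each replicate. The cause of these shifts was not tested.

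Partner lists: falls among transport adaptors with LncND siRNA were 4 under both scalings, and among dynein genes 2 at a mean of at least 5 FPKM. With the mimic, rises among mitotic partners were 1 under both scalings, dynein rises 5 with no filter, dynein falls 6 under both scalings and 6 to 11 when leaving out each replicate. Rises among regulators with the mimic were 2 and 4 under median-ratio and quantile scaling and 1 to 2 when leaving out each replicate, and falls 5 with no filter.

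Of single kinesin calls, KIF13A was lost with LncND siRNA, and KIF3A, KIF5B, KIF5C, KIF13B, KIF16B, KIFC2 and KIFC3 with the mimic, under at least 1 alternative. With LncND siRNA 4 kinesins gained a call under at least 1 alternative that kept all libraries, and 2 on leaving out a library. With 2 libraries per group, small changes with the mimic are the least certain. Estimated depth went down to 13.9 M fragments, a value that rested on 6 olfactory receptor genes.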
